A study of Homo sapiens with 6 samples.

Results

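The nuclear genes for the subunits of oxidative phosphorylation were examined complex by complex in the human neuroblastoma line BE(2)-M17, an established cell line, with and without knockdown of the long non-coding RNA GOMAFU (symbol MIAT). Members were taken by symbol: NDUFA, NDUFB, NDUFC, NDUFS and NDUFV genes with a number, SDHA to SDHD, UQCR genes, COX4 to COX8 genes and ATP5 genes. Of 26372 genes in the table, 88 symbols matched and 3 were left out, the pseudogenes ATP5EP2 and UQCRBP1 and the read-through transcript ATP5J2-PTCD1. The 85 members comprised 36 genes of complex I, 4 of complex II, 9 of complex III, 17 of complex IV, 16 of complex V and 3 that match by name only (ATP5S, ATP5SL and COX7A2L). NDUFA4 was counted with complex IV, where its protein is now placed. The NDUF rule takes only a single letter before the number, so NDUFAB1 was described apart.

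Polyadenylated RNA was sequenced in 6 libraries of this one line: 3 control libraries and 3 libraries of GOMAFU knockdown cells, numbered 2, 3 and 4 in each group. The labels give the genotype as control or GOMAFU knockdown and describe transfection of 100 pmol of small RNA. The treatment of the controls, the small RNA used for the knockdown and the time of harvest are not among them, nor is it said whether replicates were separate cultures. The p-values therefore measure the spread between these libraries, which may be technical. In bulk RNA, fewer cells of a kind and less RNA per cell cannot be told apart.

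Oxidative phosphorylation is carried out in the inner mitochondrial membrane. Complex I oxidises NADH and complex II succinate, and both pass electrons to ubiquinone. Complex III hands them to cytochrome c, complex IV reduces oxygen, and complex V uses the proton gradient to make ATP. Complex II is wholly nuclear-encoded, whereas the other complexes combine nuclear subunits with subunits encoded in mitochondrial DNA. Of 26 symbols searched for the mitochondrially encoded subunits, 0 were among the genes with values, so these subunits could not be analysed here. In neurons this system supplies most of the ATP for ion pumping and synaptic transmission. Transcription of its nuclear genes is known to depend on NRF1, on ETS-family factors such as GABP and on YY1.

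Promoter windows of 4 members are printed first because they are the members at the ends of their complexes: NDUFA6 and UQCR10 had the lowest fitted differences between knockdown and control in complexes I and III, and NDUFA9 and SDHA the highest in complexes I and II. Each window runs 5′ to 3′ on the gene's strand, from 250 bases before to 50 after the start (RefSeq, GRCh38.p14). Capitals mark matches to the NRF1 motif, spelled GCGCA, then any base, then GCGC, and to the YY1 letters AANATGGCG, searched on both strands. The windows are chr22:42090723-42091022 (minus strand) for NDUFA6, chr22:29767119-29767418 (plus) for UQCR10, chr12:4648864-4649163 (plus) for NDUFA9 and chr5:218070-218369 (plus) for SDHA.
NDUFA6: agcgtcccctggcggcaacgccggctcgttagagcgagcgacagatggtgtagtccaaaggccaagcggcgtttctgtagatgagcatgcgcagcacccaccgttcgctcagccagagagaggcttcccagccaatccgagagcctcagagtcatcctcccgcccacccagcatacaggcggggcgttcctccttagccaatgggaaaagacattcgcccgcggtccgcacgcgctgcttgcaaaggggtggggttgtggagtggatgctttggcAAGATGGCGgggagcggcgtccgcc
UQCR10: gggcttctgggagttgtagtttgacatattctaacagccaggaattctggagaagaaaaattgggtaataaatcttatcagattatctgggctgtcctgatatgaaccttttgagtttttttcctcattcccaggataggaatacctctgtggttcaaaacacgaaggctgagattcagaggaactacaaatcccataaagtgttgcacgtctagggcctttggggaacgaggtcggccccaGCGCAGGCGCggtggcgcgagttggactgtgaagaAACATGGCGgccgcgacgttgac
NDUFA9: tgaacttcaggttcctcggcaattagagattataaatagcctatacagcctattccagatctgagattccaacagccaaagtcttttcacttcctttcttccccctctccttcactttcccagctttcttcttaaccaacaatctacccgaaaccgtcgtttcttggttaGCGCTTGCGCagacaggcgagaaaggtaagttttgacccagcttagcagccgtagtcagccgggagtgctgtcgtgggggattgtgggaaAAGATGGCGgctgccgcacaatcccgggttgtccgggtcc
SDHA: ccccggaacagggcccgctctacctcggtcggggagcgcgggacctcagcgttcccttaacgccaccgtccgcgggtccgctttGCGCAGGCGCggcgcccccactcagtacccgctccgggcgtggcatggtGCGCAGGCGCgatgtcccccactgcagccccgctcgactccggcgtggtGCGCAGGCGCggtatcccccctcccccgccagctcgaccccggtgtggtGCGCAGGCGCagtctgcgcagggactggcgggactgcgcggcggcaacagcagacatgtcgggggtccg

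The SDHA window held 4 NRF1 matches, at positions -166, -117, -68 and -19 from the start. NDUFA9 and UQCR10 each held 1 NRF1 match and 1 YY1 match. NDUFA6 held a YY1 match alone. In NDUFA6, NDUFA9 and UQCR10 the ATG inside the YY1 match is the annotated start codon, beginning 3 bases into a match that starts 26, 11 and 28 bases after the transcription start.

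This arrangement recurred across the members. Promoter windows were found for 61 of the 74 subunit genes that could be tested for expression. A YY1 match was present in 17 of the 61 (27.9%), against 8.70% of 9748 tested genes with a window and 3.85% of all 27305 genes with one. In 12 of the 61 genes (19.7%, against 3.19% of tested genes) the ATG of the match was an annotated start codon. These were NDUFA6, NDUFA7, NDUFA9, NDUFB8, NDUFS3, NDUFS4, NDUFS6 and NDUFS7 of complex I, SDHB of complex II, UQCR10 and UQCRC1 of complex III and COX6A1 of complex IV. NRF1 letters were found in 15 of 61 windows (24.6%, against 14.2% of tested genes) and the ETS letters CCGGAAGT in 11 (18.0%, against 10.6%). The motifs were searched separately, and matches of different motifs may overlap. At least 1 of the 3 was present in 57.4% of the subunit genes and 29.6% of tested genes. The median log2 difference between knockdown and control was -0.07 for the 17 genes with YY1 letters and -0.10 for the 44 without them. It was -0.09 for the 15 genes with and -0.09 for the 46 without NRF1 letters, and -0.08 and -0.10 for the 11 with and 50 without ETS letters. A match is a description of letters and not of a bound site.

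The libraries differed in depth. Relative to control replicate 3, depth read from the steps between low values ran from 0.973 in control replicate 4 to 1.36 in knockdown replicate 3. Summed FPKM, a fragment density corrected for transcript length and library size, ran from 579365 to 637153. Because of the correction for library size, that sum does not measure depth. The targeted MIAT gave 5.38, 5.96 and 8.57 FPKM in controls against 1.27, 1.32 and 3.21 with knockdown. The groups did not overlap (exact permutation test, two-sided, p = 0.1, the smallest that 3 against 3 allows). Knockdown replicate 4 stood apart: it correlated with the other libraries at 0.940 to 0.956 across genes. Of 15 interferon response genes, 13 were higher in every knockdown library than in any control, as were 4.01% of all genes tested. The summed level of these 15 genes was 40.1 to 47.8 FPKM in the controls and 496, 77.7 and 10723 FPKM in knockdown replicates 2, 3 and 4. ISG15 was listed at 0 in 2 of the 3 controls. Of the neuroblastoma markers HAND2 (515 to 606 FPKM), GATA3 and MYCN were abundant, while TH did not exceed 0.09 FPKM. Markers of endothelium and blood were at or near 0, with a summed level of at most 0.10 FPKM for the 6 genes. Of 7 mesenchymal markers PRRX1 and COL1A2 were at 0, while TWIST1 (154 to 198 FPKM) and DCN (51.5 to 77.9) were expressed, with a sum over the list of 234 to 244 FPKM in controls and 234 to 272 in knockdown libraries.

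Subunit genes were among the abundant transcripts of these cells. The 74 subunit genes averaging 1 FPKM or more had a median of 162 FPKM against 11.9 for all 12164 genes that passed the same limit, and together made up 2.71% to 3.41% of the summed FPKM of a library. On the FPKM scale, complex IV had the highest median level (420 FPKM over 11 genes), followed by complex V (269 over 15), complex I (131 over 36), complex III (92.2 over 8) and complex II (53.8 over 4). The ranges overlapped: complex I ran from 12.6 to 502 FPKM and complex III from 54.0 to 887. All 4 genes of complex II lay within 50.8 to 82.6 FPKM, the narrowest range of the 5 complexes. Levels across the 74 genes were lower for longer coding sequences (Spearman rho -0.35, a description across genes that share the same libraries). The 18 genes with a coding sequence of up to 300 bases had a median of 299 FPKM and the 4 with more than 1500 bases a median of 158 FPKM. FPKM divides by gene length, and the values of very short transcripts depend on how that length is corrected.

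The highest levels belonged to small subunits. COX7C, a short membrane-spanning subunit of complex IV, averaged 1405 FPKM, ATP5E, the epsilon subunit in the stalk of the ATP synthase, 1170.1, ATP5I, its membrane subunit e, 979.6, and UQCRH, the hinge protein of complex III, 887. At the other end stood NDUFA5 (12.6 FPKM), NDUFA10 (21.7), NDUFV3 (32.8) and NDUFS1 (36.0), the last being the large iron-sulfur subunit of complex I. Within complex I the levels per length ran from that of NDUFA5 to 502 FPKM for NDUFS5, although its subunits are present in fixed ratios in the complex.

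**Figure D1:**
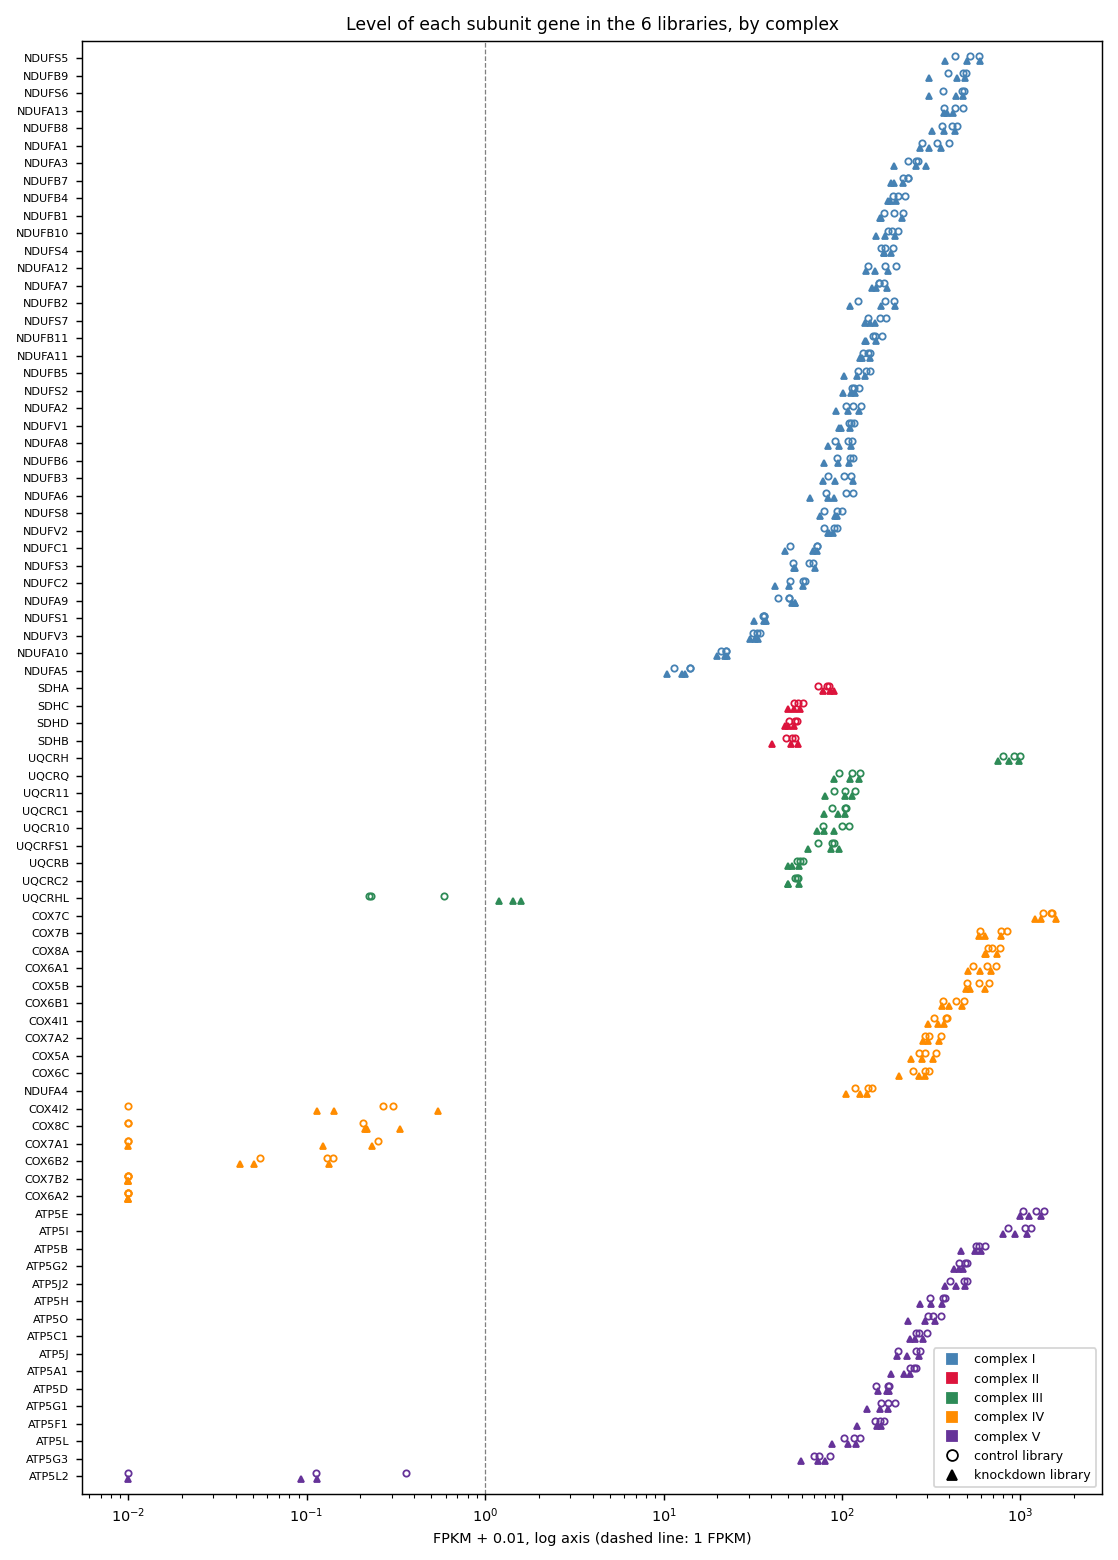
Level of each of the 82 subunit genes in every library (x axis: FPKM + 0.01, log axis; open circles: 3 control libraries; triangles: 3 knockdown libraries; colours: complexes). The isoform genes COX4I2, COX6A2, COX6B2, COX7A1, COX7B2 and COX8C, and ATP5L2, lie below 1 FPKM, and the knockdown libraries of UQCRHL, COX8C and NDUFA9 all lie to the right of their controls.

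Where complex IV has alternative isoform genes, 1 gene of each pair was expressed. COX4I1, the general form of subunit 4, stood at 302 to 388 FPKM, while COX4I2, the form known from lung and from low oxygen, did not exceed 0.54. COX6A1 ranged over 507 to 731 FPKM and the heart and muscle form COX6A2 was listed at 0 in every library. COX7A2 spanned 287 to 361 FPKM and the muscle form COX7A1 reached no more than 0.24. For COX6B1 the values were 363 to 481 FPKM and for the testis form COX6B2 no more than 0.13. COX8A ranged over 635 to 765 FPKM against no more than 0.32 for COX8C, and COX7B2 was listed at 0 throughout while COX7B spanned 589.7 to 839. COX8C lies inside UNC79 on the same strand, so its few reads may be those of the host. The c ring of complex V differs: ATP5G1, ATP5G2 and ATP5G3 encode the same mature protein with different import sequences, and all were expressed, at 172, 467 and 73.9 FPKM on average. ATP5G2 exceeded both others in each of the 6 libraries.

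Knockdown and control libraries were then compared to ask whether loss of GOMAFU changed these transcripts. Of the 74 tested subunit genes 0 were past an adjusted p of 0.05 in either direction (limma; adjusted p = 0.9998 for each), as were 0 of all 12164 genes (0% higher and 0% lower), and 0 were at an unadjusted p under 0.05, against 0.97% of all genes higher and 1.19% lower. The targeted MIAT was not past it either (log2 -1.42, SE 0.27, unadjusted p = 0.00125, adjusted p = 0.9998, limma). The absence of calls therefore does not show that the subunit genes were unchanged. The fitted difference, on the log2(FPKM + 1) scale, was below 0 for 70 of the 74 genes, against 53.3% of all genes tested. Its median over the 74 was -0.10, against -0.01 for all genes. NDUFA9 alone had all 3 knockdown values above all 3 controls, as had 4.01% of all genes, and no subunit gene had them below, as had 4.35% of all genes. The 8 subunit genes under 1 FPKM were not tested.

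**Figure D2:**
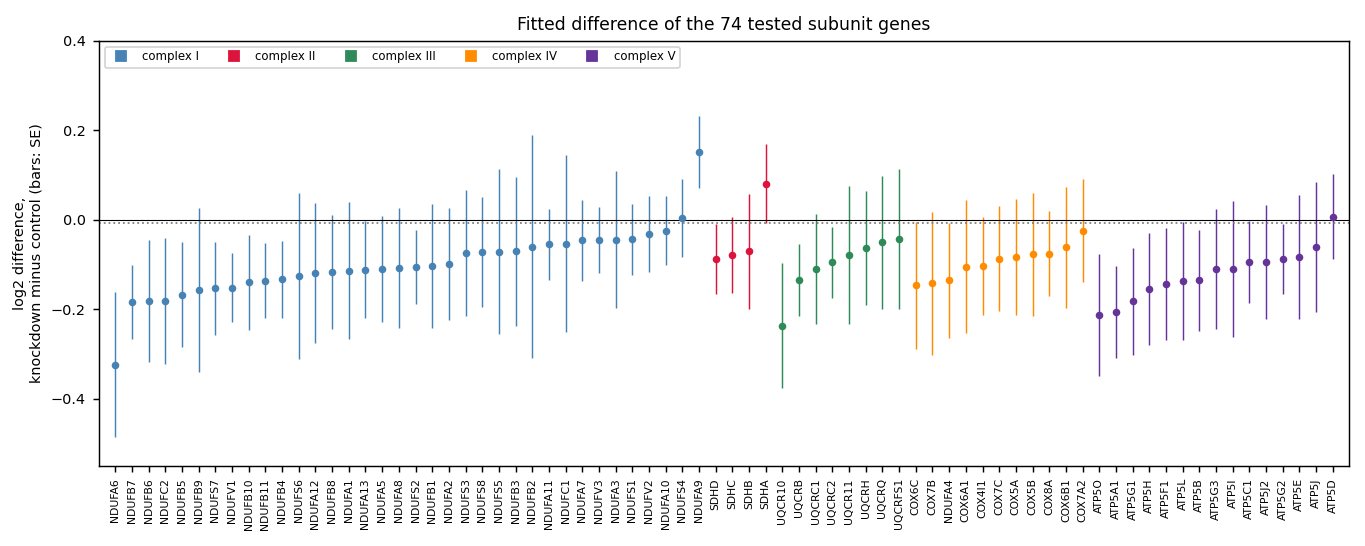
Fitted log2 difference of each tested subunit gene, knockdown minus control (y axis; bars: SE; colours: complexes; dotted line: median of all genes tested). The points run from -0.32 for NDUFA6 to 0.15 for NDUFA9, and 70 of 74 lie below 0.

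The libraries of a group differed from each other by more than the groups did. Relative to the control mean, the median of the 74 genes was 0.12, 0.03 and -0.15 in control replicates 2, 3 and 4 and -0.10, 0.07 and -0.30 in knockdown replicates 2, 3 and 4. The median of control replicate 4 was lower than those of knockdown replicates 2 and 3, and 71 of 74 genes were lower in control replicate 4 than in knockdown replicate 3. The order of the libraries was nearly the same gene by gene: 64 of 74 genes had their lowest value in knockdown replicate 4 and 55 their highest in control replicate 2. In knockdown replicate 3, 0 genes were below all controls and 17 above them, whereas in knockdown replicate 4 the counts were 67 and 1. Knockdown replicate 4 was also the library with the highest summed level of interferon response genes, 10723 FPKM, and the part of that in the subunit genes' values was not tested. Across the 6 libraries the median Pearson correlation between pairs of subunit genes was 0.87, against 0.0017 between pairs of all tested genes. Within complexes it was 0.93 for complex IV, 0.92 for V, 0.88 for III, 0.82 for I and 0.74 for II. These correlations are descriptions over 6 libraries that all genes share.

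**Figure D3:**
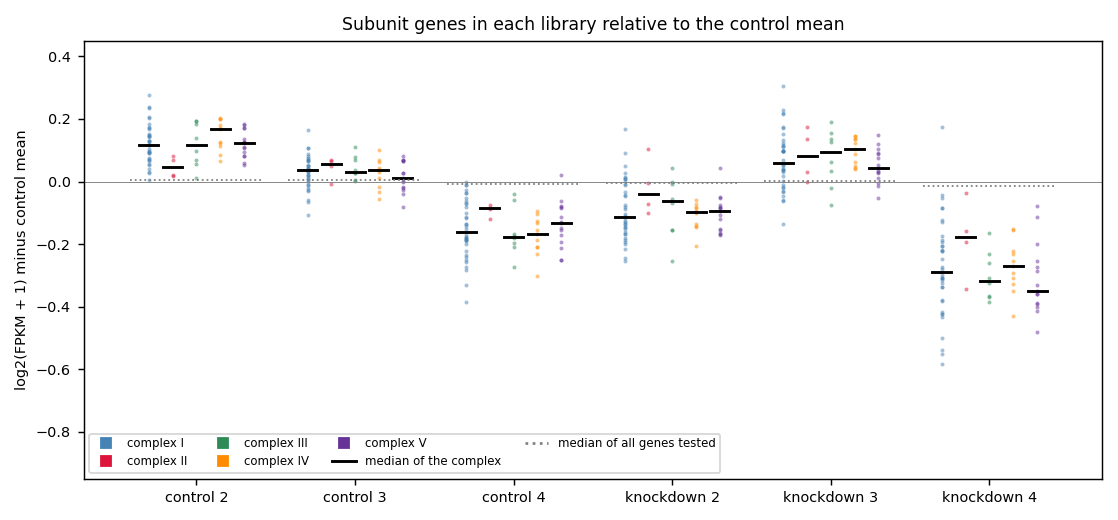
Each tested subunit gene in each library as log2(FPKM + 1) minus its control mean (points; colours: complexes; black bars: medians of the complexes; dotted lines: median of all genes tested). The 5 complexes move together, high in control replicate 2 and knockdown replicate 3 and low in control replicate 4 and knockdown replicate 4.

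The same order of libraries was seen in other short genes. Among protein-coding genes that are not members, the 224 with a coding sequence of up to 300 bases had medians of 0.08, 0.02 and -0.10 in control replicates 2, 3 and 4 and of -0.06, 0.06 and -0.14 in the knockdown libraries. The 5125 with more than 1500 bases had the opposite signs in control replicates 2 and 4 (-0.03 and 0.03) and in each knockdown library (0.02, -0.02 and 0.04). Subunit genes of up to 300 bases, 18 in number, gave 0.17, 0.04 and -0.20 in controls and -0.10, 0.11 and -0.31 in knockdown libraries. The 4 longest, NDUFS1, SDHA, ATP5A1 and ATP5B, gave 0.06, 0.01 and -0.07 in controls and -0.04, 0.03 and -0.26 in knockdown libraries. In each of 5 length classes the subunit genes were lower in knockdown replicate 4 than other genes of that class. Of the non-member genes, 71.4% of the shortest class and 46.2% of the longest were fitted below 0. The part of gene length in the members' shift was not tested.

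**Figure D4:**
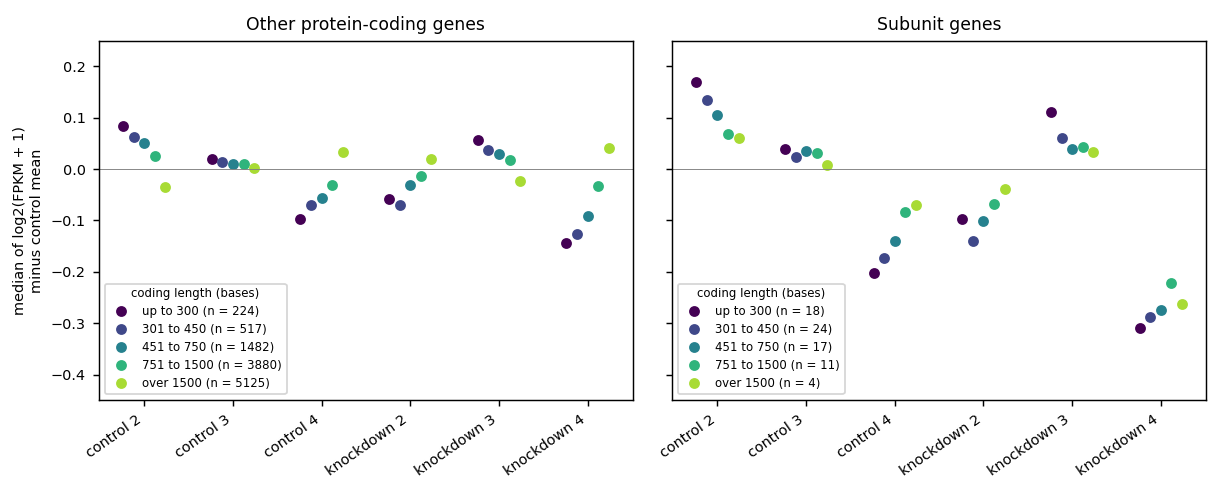
Median of log2(FPKM + 1) minus the control mean in each library (y axis) for classes of coding length (colours), for other protein-coding genes (left) and subunit genes (right). Short genes of both panels are high in control replicate 2 and knockdown replicate 3 and low in both libraries numbered 4, with wider swings among the subunit genes.

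The spread between libraries differed among members. NDUFB2, an accessory subunit of the membrane arm of complex I, gave 196, 173 and 123 FPKM in controls against 167, 199 and 111 with knockdown, a 1.80-fold range, the widest of the 74. NDUFS6, which lies near the NADH-binding part of complex I, gave 481, 469.6 and 366 FPKM in controls against 433, 478 and 308 with knockdown. In both genes the libraries numbered 4 were lowest in either group and the groups overlapped. NDUFS1 was nearly level (36.6, 36.7 and 36.2 FPKM in controls against 36.7, 37.5 and 32.2 with knockdown), and NDUFA10 had the narrowest range, 1.13-fold. Over the 74 genes the range narrowed with coding length (Spearman rho -0.37, a description across genes).

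In complex I, 34 of 36 genes were fitted below 0 with a median log2 difference of -0.11. The median was -0.07 for the 7 core subunits that carry the flavin and iron-sulfur clusters and -0.11 for the 29 accessory subunits. NDUFB7, an accessory subunit of the membrane arm, had the smallest p of the complex, with 234, 236 and 219 FPKM in controls against 197, 220.0 and 189 with knockdown (log2 -0.18, SE 0.08, unadjusted p = 0.0625, limma, not past the threshold). Only knockdown replicate 3 overlapped the controls. NDUFV1, the flavin-bearing subunit that takes electrons from NADH, averaged 113 ± 3.04 FPKM in controls against 102 ± 7.45 with knockdown (SD, n = 3 each). NDUFS7, the subunit with the last iron-sulfur cluster before ubiquinone, averaged 160.4 ± 18.5 FPKM in controls against 144 ± 9.18 with knockdown, and the groups overlapped in both genes. The most abundant members, NDUFS5 and NDUFB9, gave 587, 522 and 430.2 FPKM in controls against 505, 592 and 379 with knockdown, and 495, 474 and 393 FPKM in controls against 439, 492 and 308 with knockdown. Their differences, -0.07 and -0.16 on the log2 scale, were smaller than their SE of 0.18.

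NDUFA9, an accessory subunit that stabilises the junction of both arms of complex I, went the other way. It gave 50.8, 50.7 and 44.0 FPKM in controls against 54.5, 52.3 and 54.8 with knockdown. All knockdown values lay above all controls by a small margin (log2 0.15, SE 0.08, unadjusted p = 0.105, limma; adjusted p = 0.9998). The gene lies on chromosome 12 from 4649095 to 4694317, plus strand, and 2 other annotated genes overlap it on the same strand, so their reads cannot be told apart from its own. Knockdown replicate 4, the lowest library for most members, was the highest for NDUFA9. NDUFS4, an accessory subunit near the NADH-binding part, was fitted at 0.0033, less than its SE of 0.09.

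Complex II, which also serves the tricarboxylic acid cycle, had the median nearest 0 of the 5 complexes (-0.07), with SDHB, SDHC and SDHD fitted below 0 and SDHA above. SDHA, the flavoprotein that binds succinate (chromosome 5, 218241 to 256700, plus strand), gave 84.1, 83.0 and 73.7 FPKM in controls against 86.2, 90.6 and 78.1 with knockdown. The groups overlapped (log2 0.08, SE 0.09). SDHA has pseudogene copies elsewhere in the genome, so its reads may be split. SDHB, the iron-sulfur subunit, averaged 51.9 ± 2.86 FPKM in controls against 49.8 ± 8.33 with knockdown (SD, n = 3 each), with its lowest value, 40.7 FPKM, in knockdown replicate 4. The membrane anchor SDHC gave 60.2, 56.5 and 53.9 FPKM in controls against 54.0, 58.0 and 49.5 with knockdown (log2 -0.08, SE 0.09). Its partner SDHD gave 54.7, 56.3 and 50.7 FPKM in controls against 50.1, 53.8 and 48.1 with knockdown (log2 -0.09, SE 0.08). Both overlapped.

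In complex III all 8 tested genes were fitted below 0 (median -0.09). The core proteins UQCRC1 and UQCRC2 differed by -0.11 (SE 0.12) and -0.10 (SE 0.08), and the Rieske iron-sulfur protein UQCRFS1 averaged 84.1 ± 9.04 FPKM in controls against 82.3 ± 15.9 with knockdown (SD, n = 3 each). UQCR10, a small membrane subunit with the lowest fitted difference of the complex, gave 109, 101 and 78.7 FPKM in controls against 79.8, 90.4 and 72.7 with knockdown (log2 -0.24, SE 0.14). Its groups overlapped through control replicate 4. UQCRB, which helps form the ubiquinone site, gave 60.8, 58.5 and 56.0 FPKM in controls against 52.4, 57.6 and 49.6 with knockdown (log2 -0.14, SE 0.08). UQCRQ, the second most abundant transcript of the complex, averaged 112 ± 15.2 FPKM in controls against 108 ± 17.4 with knockdown.

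UQCRHL, a copy of UQCRH on chromosome 1 (15807169 to 15809348, minus strand), separated the groups although UQCRH did not. It was listed at 0.579, 0.215 and 0.221 FPKM in controls against 1.18, 1.57 and 1.42 with knockdown. All knockdown values lay above all controls. Of the 8 subunit genes under 1 FPKM this held for UQCRHL and COX8C, and for none were all values below. Without a limit on low values 4.02% of 18663 genes were above and 3.72% below in the same way, and 5.68% and 2.89% of the 933 genes averaging 0.5 to 1 FPKM. Without that limit the log2 difference of UQCRHL was 0.84 (SE 0.13, unadjusted p = 0.000521, limma), number 6 of 18663 genes by p, with an adjusted p of 0.99998. The parent UQCRH, on chromosome 1 from 46303631 to 46316776, gave 993, 925 and 799.8 FPKM in controls against 868, 985 and 753 with knockdown, so the copy reached 0.0232% to 0.0583% of the parent in controls and 0.136% to 0.188% in knockdown libraries. The coding sequences are shown because they are 98.6% identical: they differ at 4 of 276 bases, in capitals (GENCODE 29, GRCh38).
UQCRH: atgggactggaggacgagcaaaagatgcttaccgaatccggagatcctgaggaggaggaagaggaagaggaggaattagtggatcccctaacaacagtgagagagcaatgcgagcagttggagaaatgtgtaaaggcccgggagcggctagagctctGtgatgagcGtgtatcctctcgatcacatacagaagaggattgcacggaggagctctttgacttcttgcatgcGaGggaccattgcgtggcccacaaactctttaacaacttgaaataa
UQCRHL: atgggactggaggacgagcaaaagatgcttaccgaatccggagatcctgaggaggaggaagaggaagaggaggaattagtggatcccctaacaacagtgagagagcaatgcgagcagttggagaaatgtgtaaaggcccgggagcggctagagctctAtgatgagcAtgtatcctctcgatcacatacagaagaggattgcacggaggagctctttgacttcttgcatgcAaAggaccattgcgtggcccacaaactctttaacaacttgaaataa

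Counted from the A of the start codon, with the base of UQCRH first, the differences are G158A, G167A, G231A and G233A. How reads were shared out between both genes is not stated in the labels, so the level of UQCRHL is uncertain.

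**Figure D5:**
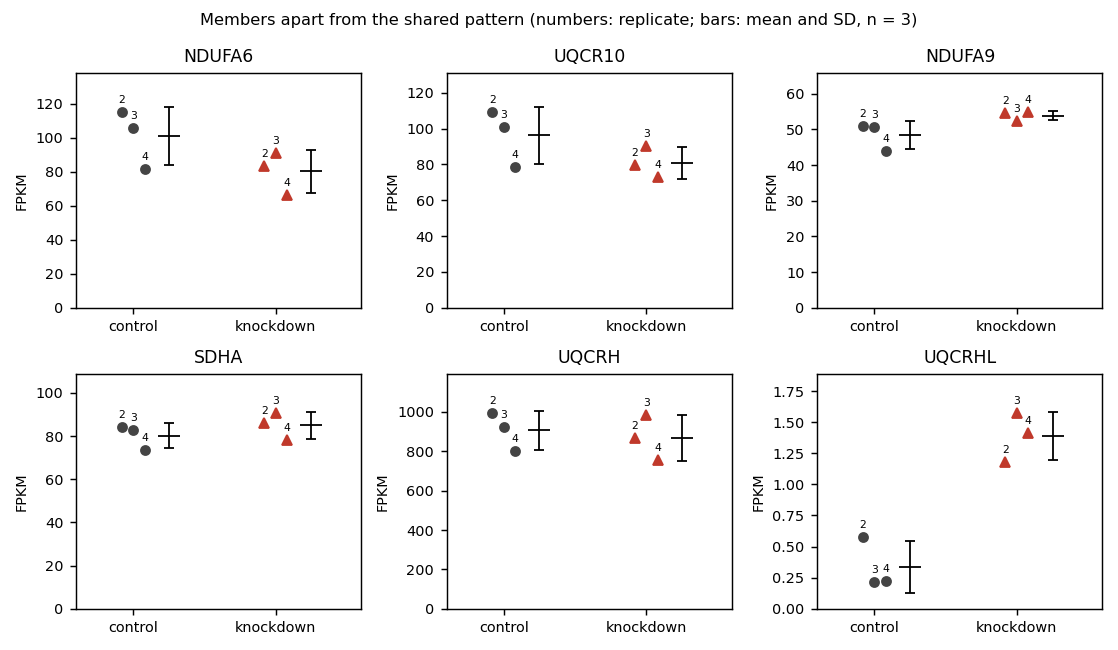
FPKM of 6 members in each library (y axes start at 0; circles: control; triangles: knockdown; small numbers: replicate; bars: mean and SD, n = 3). The knockdown libraries of NDUFA9 and UQCRHL lie above all controls, while those of NDUFA6, UQCR10, SDHA and UQCRH overlap them.

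Complex IV had all 11 tested genes below 0, with a median of -0.09 and a narrow range from -0.15 (COX6C) to -0.03 (COX7A2). COX4I1 and COX5A, subunits that contact the mitochondrially encoded core, averaged 366 ± 33.4 FPKM in controls against 341 ± 36.6 with knockdown, and 299 ± 32.6 FPKM in controls against 283 ± 40.7 with knockdown (SD, n = 3 each). COX7C gave 1509, 1479 and 1343 FPKM in controls against 1305, 1585 and 1209 with knockdown. Its highest and its lowest value were both knockdown values. COX7B, a small membrane subunit, gave 839, 783 and 593 FPKM in controls against 633, 776 and 589.7 with knockdown (log2 -0.14, SE 0.16). COX6A1, COX6B1, COX8A and COX7A2 differed by -0.11, -0.06, -0.08 and -0.03, each less than its SE. NDUFA4 gave 147, 141 and 118 FPKM in controls against 126, 139 and 106 with knockdown (log2 -0.14, SE 0.13).

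In complex V, 14 of 15 tested genes were below 0 with a median of -0.11. By part, the medians were -0.09 for the catalytic head and its central stalk, -0.15 for the peripheral stalk, -0.11 for the c ring and -0.11 for the other membrane subunits. ATP5A1 (now ATP5F1A), the alpha subunit of the head, gave 259.8, 252 and 239 FPKM in controls against 223, 241 and 189 with knockdown (log2 -0.21, SE 0.10, unadjusted p = 0.0855, limma, not past the threshold). Only knockdown replicate 3 reached the range of the controls. ATP5B, the catalytic beta subunit, averaged 595 ± 36.7 FPKM in controls against 544 ± 71.5 with knockdown (SD, n = 3 each). ATP5O, the subunit that joins the head to the peripheral stalk, gave 360.4, 323 and 303 FPKM in controls against 291, 331 and 235 with knockdown (log2 -0.21, SE 0.14). ATP5D, the delta subunit of the central stalk, averaged 173 ± 15.1 FPKM in controls against 174 ± 12.8 with knockdown. The c-ring genes ATP5G1, ATP5G2 and ATP5G3 differed by -0.18, -0.09 and -0.11. The most abundant members, ATP5E and ATP5I, differed by -0.08 and -0.11, less than their SE.

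Members that depart from the rest were sought by subtracting the median of the 74 subunit genes from each library. On that relative scale 3 genes (NDUFA9, SDHA and UQCRH) had all knockdown values above all controls and 6 (NDUFA6, ATP5O, ATP5A1, ATP5G1, NDUFB5 and ATP5H) had them below. Of all 12164 genes, 6.63% were above and 0.584% below by the same measure. The subunit median itself is lower in knockdown replicates 2 and 4, so subtracting it raises other genes there, while the members are centred on it. These shares are therefore no like measure for the counts of members. NDUFA9 was 0.26 higher, with -0.05, 0.03 and 0.02 in controls and 0.26, 0.04 and 0.47 in knockdown libraries, and SDHA was 0.19 higher. NDUFA6 was 0.22 lower, with 0.08, 0.05 and -0.13 in controls and -0.16, -0.20 and -0.29 in knockdown libraries. UQCR10 was 0.13 lower, with control replicate 4 inside the knockdown range. UQCRH stood at 0.02, 0.0022 and -0.02 in controls and at 0.04, 0.06 and 0.03 in knockdown libraries, a difference of 0.05.

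The 2 tested members on chromosome 22 had the lowest fitted differences of their complexes, and neither passed the test. NDUFA6, an accessory subunit that sits beside the ubiquinone-binding part of complex I, lies from 42085525 to 42090955 (minus strand). It gave 115, 106 and 81.8 FPKM in controls against 83.4, 90.7 and 66.2 with knockdown (log2 -0.32, SE 0.16, unadjusted p = 0.0853, limma). The groups overlapped only through control replicate 4. UQCR10 lies from 29767369 to 29770413 (plus strand). From the start of UQCR10 to the end of chromosome 22, 158 of 186 tested genes were fitted below 0 with a median of -0.17. The 186 include NDUFA6 and UQCR10 themselves. Of the 186 genes, 69 (37.1%) had all knockdown values below all controls, against 4.35% of all genes. On the rest of chromosome 22, up to the start of UQCR10, 78 of 116 genes were fitted below 0 with a median of -0.06, and 13 (11.2%) had all knockdown values below all controls. The division at UQCR10 was made at the member itself. The median of the region from UQCR10 on was -0.20, -0.14 and -0.18 in knockdown replicates 2, 3 and 4 and 0.03, -0.01 and -0.02 in the controls. The medians of the other chromosomes ran from -0.02 to 0.01. The part of this region in the difference of NDUFA6 and UQCR10 was not tested. ATP5L2, the third member on chromosome 22, did not exceed 0.35 FPKM. MIAT itself lies nearer the centromere on this chromosome, from 26646428 to 26676475.

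The 3 genes that match by name only were no part of the medians above. ATP5S, a coupling factor-like gene now named DMAC2L, gave 5.37, 5.08 and 5.24 FPKM in controls against 4.79, 4.14 and 4.43 with knockdown, with all knockdown values below all controls (log2 -0.19, SE 0.09, unadjusted p = 0.0592, limma). Genes on the opposite strand overlap it. COX7A2L, which helps join complexes III and IV, averaged 77.7 ± 2.00 FPKM in controls against 70.8 ± 6.67 with knockdown (SD, n = 3 each), and ATP5SL 34.4 ± 1.29 FPKM in controls against 34.3 ± 2.86 with knockdown.

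In the other genes of the pathway 0 were past the adjusted threshold in any list. Of 16 complex I assembly factors 14 were fitted below 0 (median -0.12), of 22 complex IV assembly factors 18 (median -0.07), of 6 complex III assembly factors 5 (median -0.07), of 4 complex II assembly factors 3 (median -0.02) and of 4 complex V factors 2 (median 0.0030). Groups were separate for TIMMDC1, SDHAF4, COX18 and COA5, all lower in the knockdown libraries, as were 4.35% of all genes tested. COX18, which inserts a mitochondrially encoded subunit of complex IV into the membrane, gave 6.53, 5.96 and 5.97 FPKM in controls against 5.07, 5.16 and 4.59 with knockdown (log2 -0.27, SE 0.085, unadjusted p = 0.016, limma). SDHAF4, which assists the maturation of SDHA, averaged 26.2 ± 1.15 FPKM in controls against 22.9 ± 0.86 with knockdown (SD, n = 3 each).

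Of 11 electron carriers and related genes 9 were below 0 (median -0.11). Cytochrome c itself, CYCS, gave 65.7, 68.7 and 47.6 FPKM in controls against 63.0, 67.1 and 35.5 with knockdown, lowest in both libraries numbered 4. NDUFAB1, the acyl carrier protein of complex I, averaged 147 ± 19.6 FPKM in controls against 136 ± 16.2 with knockdown. Of 16 tricarboxylic acid cycle genes 13 were below 0 (median -0.05). Of 17 glycolysis genes 15 were below 0 (median -0.08), with PFKM and LDHA below all controls in every knockdown library, as were 4.35% of all genes tested. The list of regulators of mitochondrial biogenesis was divided, with 8 of 14 above 0 and a median of 0.01. PPARGC1A, the coactivator that drives biogenesis, averaged 2.33 ± 0.37 FPKM in controls against 2.78 ± 0.395 with knockdown. NRF1 averaged 6.30 ± 0.289 FPKM in controls against 6.11 ± 0.405 with knockdown, and TFAM, the mitochondrial DNA packaging factor, 16.4 ± 0.905 FPKM in controls against 16.8 ± 0.864 with knockdown (SD, n = 3 each). The groups overlapped for each of these.

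The medians of the complexes depended on which libraries were kept. Without knockdown replicate 4 they were -0.02, 0.02, 0.02, -0.0047 and -0.01 for complexes I to V, so that complexes II and III changed sign and the median of the 74 genes was -0.0090. Without knockdown replicate 3 the median of the 74 was -0.19 and without control replicate 4 -0.18, while without control replicate 2 it was -0.04. Scaling each library to the same sum gave -0.05 and quantile normalization -0.06, with every complex still below 0, while the median of all genes stood at 0.04 and -0.02.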

How the data were processed

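The authors deposited FPKM values, 1 column per library; the tools named in the submitters' processing notes are TopHat2 and Cuffdiff, and the build is hg38. Their versions, the annotation, filters and the strand setting are not given there. Per the labels' protocols, libraries came from polyadenylated RNA, with paired reads of 150 bases. Values are normalized, so count models were not used. The 12164 genes averaging 1 FPKM or more were compared as log2(FPKM + 1) with limma 3.58.1 (R 4.3.3; intensity trend, two-sided, no covariate, Benjamini-Hochberg adjustment, threshold 0.05). The step was tested on simulated data with noise drawn independently for each gene. That simulation lacks the swings between libraries that genes share here, so it does not show how the step performs on these values. The log2(FPKM + 1) scale understates the change of low genes.

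The members, lists and alternatives were chosen with earlier results of these data known. Genes with the highest level or smallest p per complex, core subunits, isoforms, and members on chromosome 22 or under the limit were named by rule; NDUFB2, NDUFS6, NDUFA10, NDUFA5 and NDUFV3 and the genes of the other lists were chosen after seeing their values. Coordinates and coding lengths are from GENCODE 29 (GRCh38), found for all 85 members and 97.6% of tested genes; windows are from RefSeq (GRCh38.p14). The alternatives were 14 planned settings and 1 added.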

Additional observations from a re-analysis of the deposited data

How the results depend on the processing

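In the main fit and under each of the 15 alternatives, 0 subunit genes were past the threshold. Over all genes the count was 0, except 22 with library weights and 1 (MIAT) without both libraries numbered 4, a setting chosen after seeing the data; there MIAT differed by -1.58 and -1.54 and was past the threshold, and with 1 library left out it ran from -1.71 to -1.24. With 1 library left out the median of the 74 subunit genes ran from -0.19 to -0.0090, and complexes II and III turned above 0 without knockdown replicate 4; the other alternatives kept every complex below 0. Signs turned for some named genes with small differences: on the sum-scaled (TPM) values COX7A2 to 0.028, NDUFS1 to 0.0086, UQCRFS1 to 0.0087 and UQCRQ to 0.0022; with quantile normalization ATP5I to 0.016, COX7C to 0.011 and UQCRH to 0.034; with library weights ATP5D to -0.012 and COX7A2 to 0.0017; without both libraries numbered 4 ATP5D to -0.0067, NDUFS1 to 0.017, SDHB to 0.022 and UQCRFS1 to 0.026. With 1 library left out the range crossed 0 for ATP5D from -0.067 to 0.067, ATP5E from -0.19 to 0.012, ATP5G3 from -0.21 to 0.013, COX5A from -0.19 to 0.020, COX6A1 from -0.22 to 0.0046, COX6B1 from -0.17 to 0.025, COX7A2 from -0.11 to 0.065, NDUFB9 from -0.30 to 0.040, NDUFS1 from -0.084 to 0.022, NDUFS5 from -0.22 to 0.10, SDHB from -0.17 to 0.065, UQCRFS1 from -0.16 to 0.12, UQCRH from -0.16 to 0.035 and UQCRQ from -0.16 to 0.078. Fitted with the replicate number as a block, 0 genes passed and the median of the 74 stayed -0.10. The numbers were not taken to pair the samples: deviations of same-numbered libraries correlated at 0.092, 0.17 and 0.32 for replicates 2, 3 and 4, and controls 2 and 3 did not correlate best with their own number. Control 4 did, with -0.19 and -0.34 for knockdown replicates 2 and 3. The labels do not say whether a number marks a shared batch, and this was not tested. FPKM carry no read counts, so counting error could not be given.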
